A study of Mus musculus with 24 samples.

Results

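The Kcn fragments described here are the MspI fragments whose deposited annotation names a gene beginning with Kcn, the prefix shared by mouse genes for potassium channel pores and for several of their partner subunits. They numbered 683 of the 65535 fragments of the table and were assigned to 28 of its 3860 gene names, on chromosomes 1, 2 and 3. Reduced representation bisulfite sequencing (RRBS), which cuts DNA with MspI at CCGG and tells a methylated CpG from an unmethylated one by whether its cytosine survives bisulfite, was applied to brown adipose tissue (BAT). There were 24 libraries. In 12 of them the dams of the pups had been gavaged with olive oil (VEH) from gestation up to PND 5. In the other 12 they had been gavaged over the same period with a mixture of DDT isomers, together 1.7 mg per kg of body weight. All pups were C57BL/6J females taken at PND 12, and BAT of 2 to 5 littermates was pooled, so that each replicate was a litter and differences between littermates were not seen. Every cell type of the tissue contributed DNA, so a level is an average over adipocytes, vessels, nerves and immune cells.

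Potassium channels let potassium ions cross the cell membrane and thereby hold the membrane at a negative voltage or return it there after excitation. Voltage-gated channels open when the membrane is depolarized, inward rectifiers and two-pore channels carry current near the resting voltage, and ion-activated channels respond to calcium or sodium inside the cell. Auxiliary subunits make no pore but change how the pore-forming subunits open or where they go. In mammalian DNA, CpG-rich start regions usually carry little methylation and the bodies of genes usually carry much.

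The 28 genes comprised 14 voltage-gated pore genes with 451 fragments, 4 inward rectifiers with 54, 2 two-pore channels with 34, 3 ion-activated channels with 24 and 5 auxiliary subunits with 120. The methylation level of a fragment was its methylated calls over all its calls, taken in libraries with 10 or more calls, and the fragments tested were those with a level in 8 or more VEH and 8 or more DDT libraries. This left 178 Kcn fragments at 24 genes, or 26.1% of the Kcn fragments against 30.9% of all fragments. The tested fragments held 98.9% of the Kcn calls. Of the 505 others, 409 had fewer than 10 calls in each of the 24 libraries. No fragment of the other 4 genes, Kcnj13, Kcnmb3 and Kcnt2 among them, was tested. Kcng1, which encodes a voltage-gated subunit that is electrically silent on its own and modifies Kv2 channels, gave the most tested fragments, 32 of 86, and Kcnd3, which encodes the Kv4.3 pore, gave 17 of 38.

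Libraries held 8371958 to 14124652 calls, and the median tested Kcn fragment had 182 to 319 calls in the VEH libraries. In the DDT libraries this median ran from 134.5 to 298.5, except in DDT replicate 4, where it was 15.5. DDT replicate 4 gave a level at 97 of the 178 fragments. For the 85 Kcn fragments that had a level in every library, the mean was 29.5% ± 0.587 over the VEH libraries and 29.2% ± 1.78 over the DDT libraries (SD, n = 12 each). The lowest libraries were DDT replicate 4 at 25.4% and DDT replicate 12 at 27.1%, and the highest was DDT replicate 3 at 32.4%. Results that rest on DDT replicates 4 and 12 are therefore given with and without them. These 2 were picked for their low levels, so leaving them out tends to raise DDT minus VEH. DDT replicate 3, at these 85 fragments above the VEH range of 28.8% to 30.9%, was kept in that comparison.

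The first sequences shown are coding pieces of 2 channel genes on chromosome 2, because the VEH level within each of these genes changed sharply along the coding sequence. These and all later sequences are written 5′ to 3′ on the plus strand of GRCm38 from the RefSeq sequence of that build, with each CpG in capitals. Methylation is read at CpGs, but reads of 50 bp from the ends do not cover the middle of the longest fragments shown. Kcns1 lies on the minus strand and Kcnk15 on the plus strand.
Kcnk15 last exon, 2.88% methylated, chr2:163858657-163858723: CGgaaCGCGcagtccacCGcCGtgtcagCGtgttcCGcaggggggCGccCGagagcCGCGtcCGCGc
Kcnk15 last exon, 23.6% methylated, chr2:163858786-163858856: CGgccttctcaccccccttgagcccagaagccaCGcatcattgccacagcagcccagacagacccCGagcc
Kcns1 coding sequence, 11.9% methylated, chr2:164168607-164168714: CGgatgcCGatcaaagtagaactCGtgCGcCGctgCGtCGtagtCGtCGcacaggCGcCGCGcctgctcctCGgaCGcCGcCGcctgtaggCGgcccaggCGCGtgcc
Kcns1 coding sequence near the gene end, 92.3% methylated, chr2:164164627-164164734: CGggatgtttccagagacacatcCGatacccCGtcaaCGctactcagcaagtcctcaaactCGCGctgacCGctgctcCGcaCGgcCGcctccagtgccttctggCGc

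In Kcnk15 the fall in CpG density is visible in the letters, since the fragment at 2.88% held 13 CpGs in 67 bp and the fragment at 23.6% held 3 in 71 bp. The fragment between them, not shown, held 3 in 62 bp and was at 6.98%, so the level also differed at similar density. In Kcns1 both fragments were 108 bp long, with 19 CpGs in the one at 11.9% and 11 in the one at 92.3%. Across the 178 tested fragments, Spearman's rho between CpGs per 100 bp and the VEH level was -0.63. These fragments share the same libraries, and neighbours share sequence, so the value is a description.

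Levels of the Kcn genes in VEH fell mostly at either end of the scale. Of the 178 fragments, 82 were under 20%, 55 were over 80% and 41 lay between. Their median was 25.4%, against 11.02% over all 20225 tested fragments. In the cores of CpG islands, as annotated by the authors, the median was 4.78% over 53 Kcn fragments and 3.70% over all 6812 tested ones. Outside islands it was 72.8% over 119 Kcn fragments and 51.4% over all 12250. The plot of levels by gene shows both ends of the scale within single genes, as in Kcnd3 and Kcng1.

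**Figure D1:**
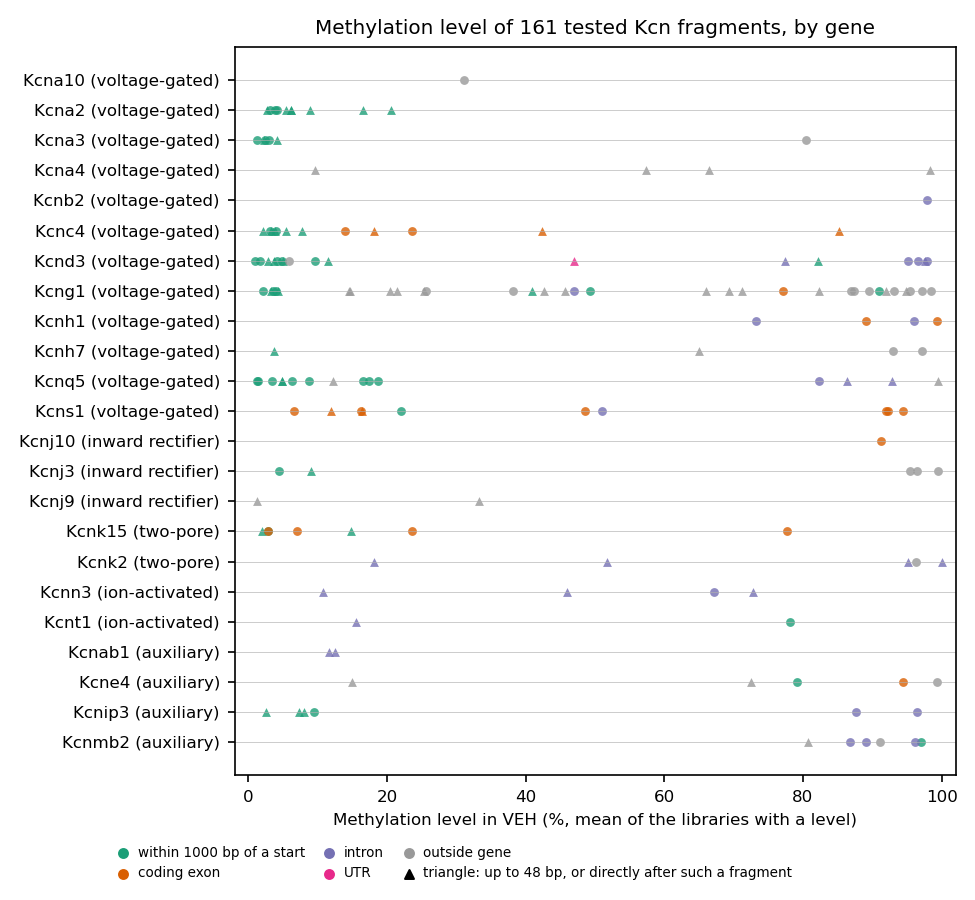
Each point is 1 of 161 tested Kcn fragments of 23 genes, placed by its mean methylation level in VEH (%, horizontal axis) and by gene (vertical axis, with the class of the encoded protein), and coloured by its place in GENCODE M21. Triangles are fragments of up to 48 bp or directly after such a fragment. Green points, within 1000 bp of an annotated start, gather at the low end, with those of Kcne4, Kcnt1 and Kcnmb2 among the exceptions at 79.1%, 78.2% and 97.0%.

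Starts of the channel genes were mostly little methylated. For 15 of the 24 genes the tested fragment nearest to an annotated transcript start lay within 1000 bp of it, and in 11 of these its VEH level was under 20%. The lowest levels of these nearest fragments were at Kcnq5, which encodes the Kv7.5 pore of the M-type current, with 1.35% ± 0.732 (SD, n = 12), and at Kcnd3 with 1.67% ± 1.87 (SD, n = 12). The acid-sensitive two-pore family gene Kcnk15 had 1.91% ± 3.27 (SD, n = 11) and the Kv1.3 gene Kcna3, best known from lymphocytes, had 2.40% ± 2.14 (SD, n = 12). These 4 did not differ beyond the spread between their libraries. The Kv11 family gene Kcnh7 (3.67%), the Kv1.2 gene Kcna2 (3.88%), Kcng1 (4.28%) and the G-protein-gated inward rectifier gene Kcnj3 (4.35%) followed, then Kcnip3 (7.34%), whose product binds Kv4 channels and calcium, at a start inside the gene 39830 bp from the gene start that the authors used, and the Kv3.4 gene Kcnc4 (7.70%). The starts of Kcng1, Kcnh7, Kcnip3, Kcnj3 and Kcnk15 carried these low levels although the deposited annotation marks no CpG island at those fragments. Except for that of Kcnj3, these fragments were of up to 48 bp.

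The auxiliary subunit gene Kcne4, whose product inhibits several Kv1 and Kv7 channels, differed from the other genes with a fragment at their own start. Its fragment at chr1:78816852-78816901, centred 50 bp from an annotated start, had a lowest, median and highest VEH level of 70.4%, 77.2% and 94.3%, with a mean of 79.1% ± 6.69 (SD, n = 12). The VEH libraries at this fragment lay above every VEH library of the 10 genes named before at their nearest fragments. A fragment in the Kcne4 coding sequence 1011 bp from that start was at 94.4% ± 3.81 (SD, n = 12), and no Kcne4 fragment lay in an island. The fragments of the sodium-activated channel gene Kcnt1 (78.2%) and of Kcnmb2 (97.0%), a beta subunit of the large-conductance calcium-activated channel, also lay near starts inside the gene, 46276 bp and 253652 bp from the gene start that the authors used. The silent subunit gene Kcns1 had 21.95% ± 5.41 (SD over 8 VEH litters) at 386 bp from its start.

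Kcnd3 showed the contrast between start and body on 1 gene. From 1123 bp upstream to 640 bp downstream of its start, 10 fragments lay between 0.952% and 11.4% in VEH. A coding fragment of 37 bp, 6766 bp from this start but 314 bp from another annotated start inside the gene, was at 82.2% ± 1.66 (SD, n = 12). Of the 5 intronic fragments farther in, the 3 over 48 bp were at 95.1% ± 1.97 (SD, n = 12), 96.6% ± 1.698 (SD, n = 12) and 97.9% ± 2.60 (SD, n = 11), 59905 to 141092 bp from the start. The other 2, of up to 48 bp, were at 97.6% and 77.4%. A fragment of 37 bp in an untranslated exon part, 217965 bp from the start, was lower at 47.0% ± 7.95 (SD, n = 12).

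Of the 53 tested Kcn fragments in island cores, 5 had a VEH level between 20% and 80%, against 129 of 6812 over all tested fragments. Among them was a fragment of Kcnc4 at chr3:107458211-107458271 in its coding sequence with 23.5% ± 4.78 (SD, n = 12). Another was a fragment of Kcna2 at chr3:107101698-107101772, directly after one of 48 bp, with a single CpG and 20.6% ± 1.26 (SD, n = 12). DDT minus VEH was 2.44 percentage points at this Kcnc4 fragment (unadjusted ANOVA p = 0.444) and 1.27 points at this Kcna2 fragment (p = 0.499). A single core fragment was above 80%, at 92.9% ± 4.74 (SD over 9 VEH litters), and it lay 422689 bp upstream of Kcnh7.

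Methylation of Kcnk15 rose in steps within a single exon. The gene held 4 directly adjacent fragments in its last exon, 5039 to 5301 bp from its start, with VEH levels of 2.88% ± 0.531, 6.98% ± 2.36, 23.6% ± 1.52 and 77.7% ± 3.42 (SD, n = 12 each) in the direction of transcription. The VEH ranges of the last 3 did not overlap, with 3.37% to 10.7%, then 21.02% to 25.4%, then 71.7% to 84.1%. Kcns1 alternated, with 50.9% and 48.6% at 2158 and 2266 bp from its start, then 4 coding fragments at 6.55% to 16.4%, and then 3 adjacent coding fragments at 92.0%, 92.3% and 94.5%, 6270 to 6512 bp from the start. In DDT the 4 Kcnk15 fragments differed from VEH by -2.95 to 0.44 points, and the rise was present in both groups.

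**Figure D2:**
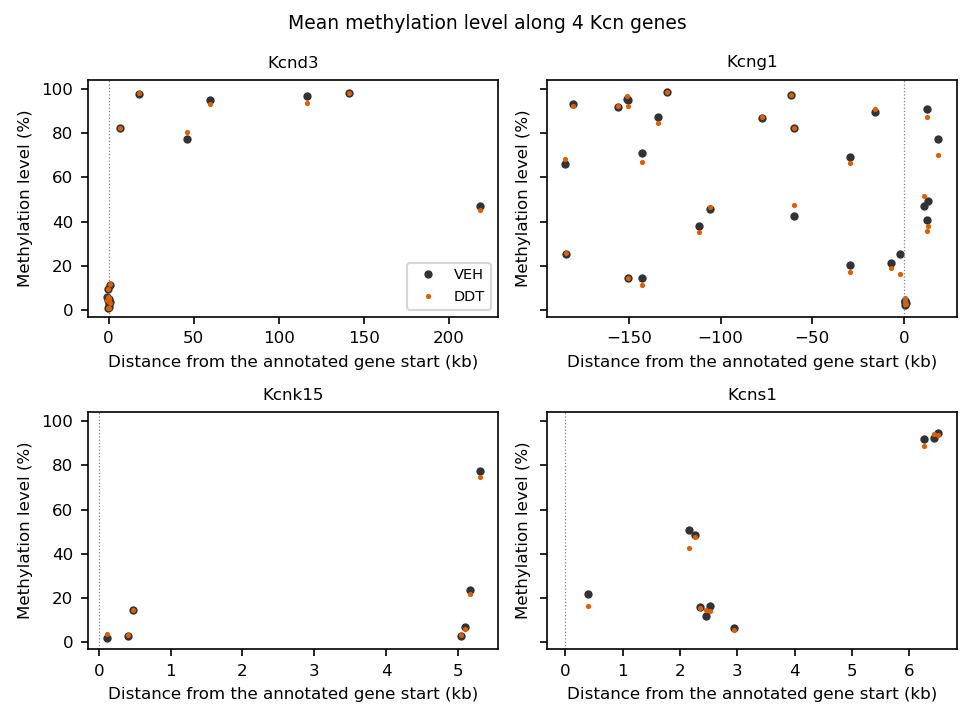
Mean methylation level (%, vertical axis) of each tested fragment of Kcnd3, Kcng1, Kcnk15 and Kcns1 against its distance from the annotated gene start in kb (horizontal axis, positive in the direction of transcription), with VEH in black and DDT in orange. Levels are under 12% around the start of Kcnd3 and pass 90% in 4 of its 5 intronic fragments and in the last fragment of Kcns1 in both groups.

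Bodies of the channel genes were mostly methylated. Of 34 intronic fragments over 1000 bp from any start, 20 were over 80% and 5 under 20%, with a median of 86.5%. Examples with the most calls in their genes were the Kv2.2 gene Kcnb2 (97.9%), the mechanically gated two-pore gene Kcnk2 (95.2%), Kcnmb2 (89.1%) and the small-conductance calcium-activated gene Kcnn3 (72.8%). The Kv10 gene Kcnh1 was at 89.1% ± 3.75 (SD, n = 12) in an exon that also overlaps Hhat, and Kcnj10, which encodes the Kir4.1 inward rectifier known from glia, was at 91.2% ± 2.79 (SD, n = 12) in its coding exon. The 5 intronic fragments under 20% were all of up to 48 bp. They were both tested fragments of Kcnab1, which encodes a beta subunit of Kv1 channels, with 12.4% ± 2.83 and 11.6% ± 2.92, and single fragments of Kcnn3 with 10.7% ± 2.73, of Kcnt1 with 15.5% ± 2.04 and of Kcnk2 with 18.1% ± 5.504 (SD, n = 12 each). The Kcnt1 fragment was the one with the most calls in the body of its gene. The 24 coding fragments away from starts had a median of 62.9%, with 8 under 20% and 10 over 80%.

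A gene name in the annotation did not always place a fragment in that gene. Of the 178 tested fragments, 45 lay outside the named gene and over 1000 bp from its starts, with a median of 72.5%. Both Kcnj9 fragments lay at Kcnj10. The first, in an island core directly before the Kcnj10 start, was at 1.24% ± 1.87 and the second at 33.3% ± 5.96 (SD, n = 12 each). The single tested fragment of Kcna10 lay inside Kcna2 and was at 31.0% ± 12.5 (SD, n = 12). The 4 fragments named for Kcna4, the Kv1.4 gene, were 334615 to 369984 bp upstream of it. At Kcng1, 22 of the 32 tested fragments were upstream of the gene, up to 184722 bp away, at levels from 14.5% to 98.5%. The 3 Kcnj3 fragments 232049 to 232330 bp upstream were at 95.4% to 99.5%.

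The level of a fragment moved with its length in a way that affects these profiles. Over all tested fragments outside islands with 1 CpG and no fragment directly before them, the median VEH level was 30.8% at 48 bp (n = 65), 72.2% at 49 bp (n = 59), 89.6% at 50 bp (n = 25) and 94.3% at 51 bp (n = 38). Among Kcn fragments outside islands with 1 CpG, the median was 44.8% for the 20 of up to 48 bp and 95.6% for the 8 longer ones. Reads were 50 bp long, so a read of a fragment of up to 48 bp runs past its far end. The bases there are filled in with unmethylated cytosine when MspI ends are repaired, and unless it is removed such a base is counted at the first CpG of that fragment or of the next. No step that removes these bases is given in the sources used here, and their part in the levels was not tested.

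The 2 fragments below are shown because they lie next to each other upstream of Kcng1, hold 1 CpG each and differ by 80.4 points, the second largest gap among 57 pairs of directly adjacent tested Kcn fragments. The first, of 41 bp, was at 94.9% ± 0.894 and the second, of 103 bp, at 14.5% ± 2.32 (SD, n = 12 each) in VEH.
Kcng1 upstream, 94.9% methylated, chr2:168432325-168432365: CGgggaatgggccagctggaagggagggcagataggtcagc
Kcng1 upstream, 14.5% methylated, chr2:168432366-168432468: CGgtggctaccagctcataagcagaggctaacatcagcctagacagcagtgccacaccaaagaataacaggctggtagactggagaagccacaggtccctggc

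Among the Kcn fragments, 94 were over 48 bp and did not directly follow a shorter fragment, 69 were of up to 48 bp and 15 directly followed one. Outside islands, the median VEH level was 87.6% over 63 fragments of the first kind, 43.6% over 49 of the second and 66.0% over 7 of the third. Restricted to the first kind, intronic fragments over 1000 bp from a start had a median of 90.1% (n = 18), with none under 20%, and fragments outside the genes a median of 93.0% (n = 20). Fragments within 1000 bp of a start had 4.26% (n = 38), against 4.82% over all 74. The fragments of the Kcnk15 last exon described above, the highly methylated coding fragments of Kcns1 and the Kcne4 fragments at the start and in the coding sequence were all of the first kind. The levels given for Kcnab1, Kcnj9, the nearest start fragments of Kcng1, Kcnh7, Kcnip3 and Kcnk15 and the Kcnk2 and Kcnn3 introns came from fragments of up to 48 bp. The Kcna2 core fragment at 20.6%, the nearest start fragment of Kcnc4 and the Kcns1 fragment at 11.9% directly followed such a fragment.

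**Figure D3:**
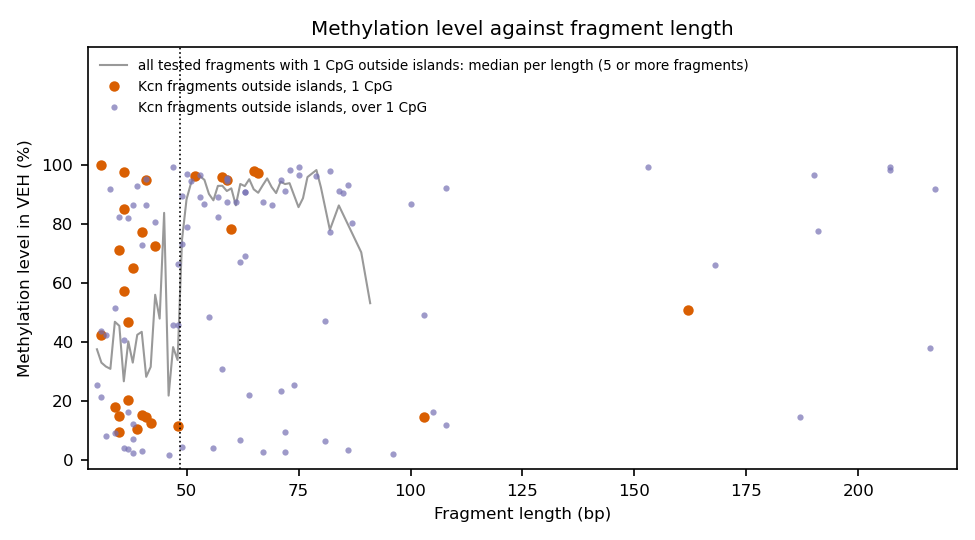
Mean VEH level (%, vertical axis) of Kcn fragments outside islands against fragment length (bp, horizontal axis), with 1 CpG in orange and more in purple. The grey line is the median per length over all tested fragments with 1 CpG outside islands. Among only those with no fragment directly before them, a part of the fragments behind the line, the median was 30.8% at 48 bp and 94.3% at 51 bp. The dotted line lies between 48 and 49 bp.

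The spread between litters varied from fragment to fragment. The median SD over the VEH libraries was 2.71 percentage points over the tested Kcn fragments and 2.36 over all tested fragments. Among Kcn fragments with at least 50 calls in every library, the widest spread was at chr2:168268843-168268878 in the coding sequence of Kcng1, with a lowest, median and highest VEH level of 27.6%, 41.2% and 68.1%. The next were a Kcns1 fragment with 11.9% ± 4.79, the Kcnc4 core fragment with 23.5% ± 4.78, a Kcnq5 start fragment with 17.4% ± 3.94 and a Kcnk15 intron fragment with 14.8% ± 3.77 (SD, n = 12 each). DDT minus VEH at these 5 fragments was -4.94, 2.89, 2.44, -0.89 and -0.15 points in this order, with unadjusted ANOVA p of 0.221, 0.303, 0.444, 0.712 and 0.935. The Kcng1 fragment was 36 bp long and the Kcnk15 fragment 41 bp, and the Kcns1 fragment directly followed one of 37 bp. Some fragments with fewer calls had a larger VEH SD, as with 19.4 points at a Kcng1 coding fragment of 103 bp.

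DDT and VEH were compared to ask whether perinatal DDT went with a different methylation of these genes at PND 12. By ANOVA with Benjamini-Hochberg adjustment over all 20225 tested fragments, 0 of the 178 Kcn fragments had an adjusted p under 0.05, and 0% of all tested fragments did. The smallest adjusted p of a Kcn fragment was 0.869. An unadjusted p under 0.05 was found at 9 Kcn fragments, or 5.06%, against 4.18% of all tested fragments, so the share was near the background. Of the 9, 6 were lower in DDT, where 2.93% of all tested fragments were, and 3 were higher, where 1.25% were. Limma gave 6 at an unadjusted p under 0.05 (3.37%, against 3.51% of all) and quasi-binomial regression 6 as well (3.37%, against 7.72% of all), and both gave 0 at an adjusted p under 0.05.

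By class of channel, the 9 fragments were 7 of 133 at voltage-gated genes, 1 of 8 at inward rectifiers and 1 of 12 at two-pore genes, with 0 of 6 at ion-activated channels and 0 of 19 at auxiliary subunits, all by ANOVA at an unadjusted p under 0.05. The median difference, DDT minus VEH, was -0.14 percentage points over the Kcn fragments and -0.16 over all tested fragments, and 99 of 178 were lower in DDT (55.6%, against 56.9% of all). Without DDT replicate 4 the median of the Kcn fragments was 0.04 points (-0.04 over all) and 84 of 177 were lower (47.5%, against 51.9% of all). Without DDT replicates 4 and 12 it was 0.19 points (0.018 over all) and 70 of 172 were lower (40.7%, against 49% of all). The sign of the median thus depended on these libraries, which were picked for their low levels. The 95% confidence interval of the difference lay within 5 points of 0 at 94 of the 178 fragments and was over 20 points wide at 13.

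**Figure D4:**
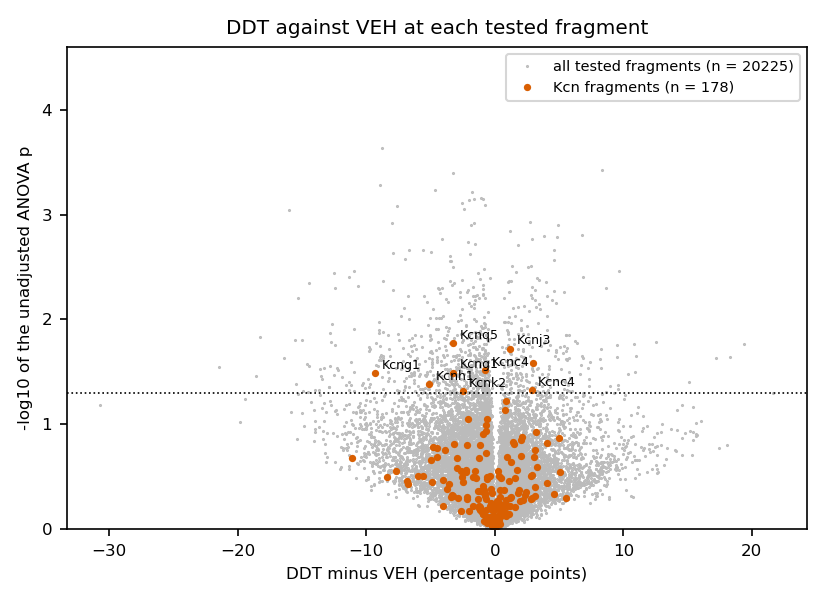
Each point is a fragment, placed by DDT minus VEH in percentage points (horizontal axis) and by -log10 of its unadjusted ANOVA p (vertical axis, log scale), with the 178 Kcn fragments in orange over all 20225 tested fragments in grey. The dotted line is p = 0.05, above which 9 Kcn fragments lie, and grey points reach higher than any of them.

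Of the 4 Kcn fragments with the smallest p, 3 are shown because the comparison at these genes rests on those of their CpGs that reads reached. The strand named with each is that of the gene, and the letters are the plus strand throughout.
Kcnq5 coding sequence near the start, minus strand, chr1:21961340-21961454: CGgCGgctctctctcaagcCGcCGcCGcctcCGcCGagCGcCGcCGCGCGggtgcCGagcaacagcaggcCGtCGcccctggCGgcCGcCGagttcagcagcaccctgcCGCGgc
Kcnj3 far upstream, plus strand, chr2:55203611-55203669: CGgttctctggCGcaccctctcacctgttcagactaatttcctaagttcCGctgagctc
Kcnc4 directly upstream of the start, minus strand, chr3:107459700-107459730: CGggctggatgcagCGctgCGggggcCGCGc

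At the Kcnq5 fragment, which holds 20 CpGs in its 115 bp, the lowest, median and highest level was 0%, 1.45% and 11.5% over 11 VEH libraries and 0%, 0% and 0.843% over 11 DDT libraries. All DDT libraries lay below the VEH median, but 5 VEH libraries were at 0% too, so the groups overlapped. DDT minus VEH was -3.23 points ± 1.24 (SE), with an unadjusted ANOVA p of 0.0168, an adjusted p of 0.869 and a permutation p of 0.0144. The depth was low, with a median of 27 calls, and a level of 0% from 10 calls allows up to 30%, counting error only. With limma the p was 0.453, with quasi-binomial regression the difference was -1.38 points of summed calls (p = 0.0715), and with at least 20 calls per library the fragment had too few levels to be tested.

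At the Kcnj3 fragment, 232330 bp upstream of this inward rectifier gene, the lowest, median and highest level was 94.0%, 95.6% and 97.0% over 12 VEH libraries and 93.6%, 96.5% and 98.3% over 11 DDT libraries. DDT libraries were above the VEH median in 10 of 11, within overlapping ranges. The difference was 1.19 points ± 0.469 (SE), with an unadjusted ANOVA p of 0.0189, an adjusted p of 0.869 and a permutation p of 0.0195. With levels from at least 5 calls it turned to -0.61 points (p = 0.747). The only library this added was DDT replicate 4, with 8 calls. The directly adjacent fragment differed by -0.35 points, and the third of this upstream group by -0.00918 points.

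At the start of Kcnc4, fragments close together differed in opposite directions. The fragment of 31 bp shown above, 163 bp upstream of the GENCODE start, had a lowest, median and highest level of 2.67%, 3.12% and 4.86% over 12 VEH libraries and 0.0391%, 2.69% and 3.42% over 12 DDT libraries. Its lowest value, from DDT replicate 4, rested on 2558 calls, the most of any library. The difference was -0.75 points ± 0.325 (SE) with an unadjusted ANOVA p of 0.0303 and -0.53 points without DDT replicate 4 (p = 0.0446). The fragment nearest to the start, chr3:107459490-107459687, had 3.38%, 7.84% and 12.8% in VEH and 6.45%, 9.52% and 20.3% in DDT, with DDT replicate 12 the highest. Here the difference was 2.87 points ± 1.36 (SE), with an unadjusted p of 0.0473, and it was 1.90 points without DDT replicate 12 (p = 0.0852). The groups overlapped at both fragments, and the adjusted p was 0.869 at both. With limma the p was 0.129 at the first and 0.0408 at the second. With quasi-binomial regression it was 0.0303 and 0.0655. The second fragment directly follows one of 39 bp.

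Kcng1 held 2 of the 9 fragments, both upstream of the gene and both lower in DDT. At chr2:168283929-168284002, 2230 bp upstream, the lowest, median and highest level was 0%, 27.2% and 41.7% over 12 VEH libraries and 5.71%, 17.4% and 29.2% over 11 DDT libraries. The difference was -9.30 points ± 4.06 (SE), the largest of the 9, with an unadjusted ANOVA p of 0.0323, an adjusted p of 0.869 and a permutation p of 0.0328, and 10 of 11 DDT libraries were below the VEH median. The median depth was 41.5 calls, and without VEH replicate 2 the p was 0.0602. At chr2:168424681-168424867, 143038 bp upstream and directly after a fragment of 35 bp, the mean was 14.6% ± 2.44 over 12 VEH litters and 11.4% ± 4.06 over 10 DDT litters (mean ± SD), with an unadjusted ANOVA p of 0.0321. The Kcng1 fragments 610 to 1002 bp downstream of the gene start that the authors used, between 2.13% and 4.28% in VEH, differed by -0.59 to 1.96 points. They lay 6 to 398 bp from an annotated start inside the gene. Near another start inside the gene, coding fragments at 49.3%, 40.9% and 91.0% in VEH differed by -11.15, -4.94 and -3.85 points. Their unadjusted ANOVA p was 0.21, 0.221 and 0.177 in this order.

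Another 2 of the 9 were shallow. In an intron of Kcnh1 at chr1:192444461-192444518, with 1 CpG and a median of 29.5 calls, the mean was 96.0% ± 4.57 over 12 VEH litters and 90.9% ± 6.41 over 10 DDT litters (mean ± SD), with all 10 DDT libraries below the VEH median and an unadjusted ANOVA p of 0.0411. The difference there was -5.12 points, and it was -3.20 (p = 0.131) with at least 20 calls and -2.79 points of summed calls (p = 0.160) with quasi-binomial regression. In an intron of Kcnk2 at chr1:189255178-189255208, with 1 CpG and a median of 16.5 calls, all 10 VEH libraries were at 100%, and 5 of 8 DDT libraries were too. The other 3 were at 95.7%, 93.8% and 90.5%. The unadjusted ANOVA p there was 0.0479, whereas the exact permutation p was 0.137. The tenth fragment by p lay 423242 bp upstream of Kcnh7, with 97.1% ± 0.933 over 12 VEH litters and 98.0% ± 1.23 over 11 DDT litters (mean ± SD) and an unadjusted p of 0.0593.

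**Figure D5:**
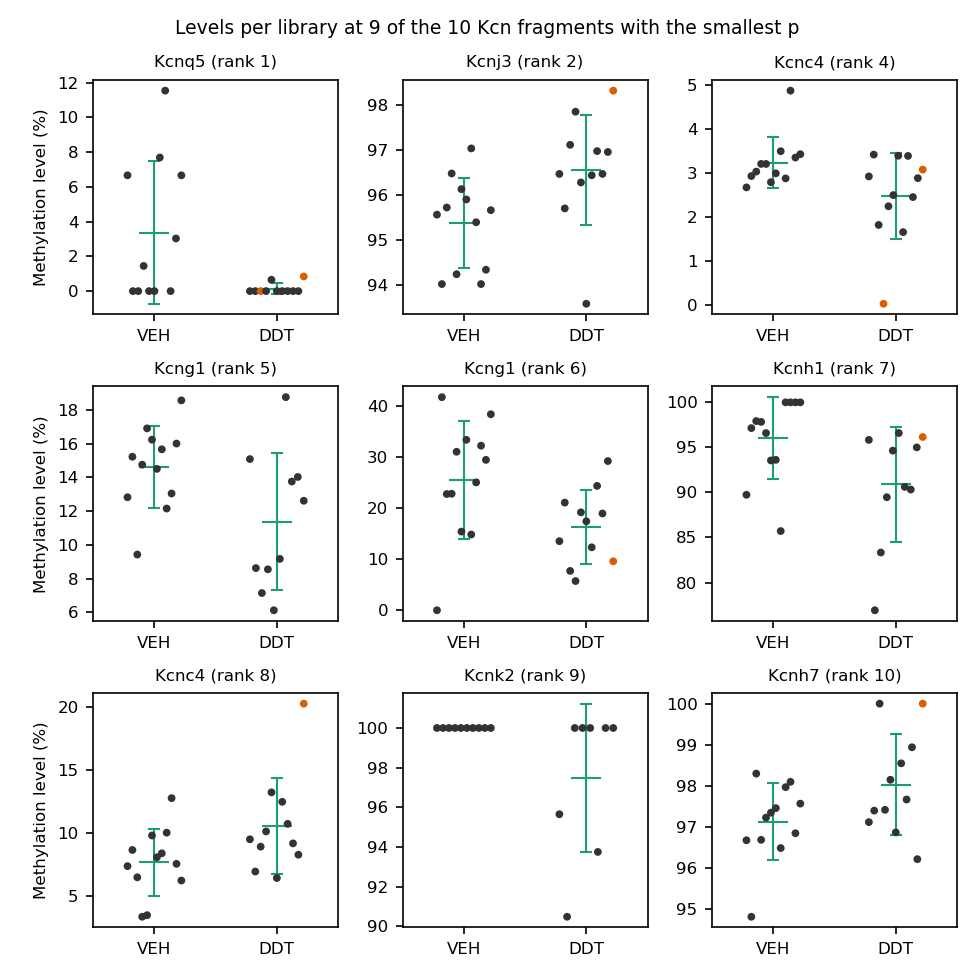
Methylation level (%, vertical axis, a scale of its own in each panel) in each VEH and DDT library at 9 of the 10 Kcn fragments with the smallest p, in order of p. Green bars are mean ± SD, and orange points are DDT replicates 4 and 12. The groups overlap in all 9 panels, and at Kcnk2 all VEH libraries sit at 100%.

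At 12 Kcn fragments (6.74%, against 8.59% of all tested fragments) the groups differed by over 5 points, and at 10 of them the unadjusted ANOVA p was over 0.05. The Kcne4 start fragment differed by -7.70 points (p = 0.281), with 71.4% ± 23.2 (SD, n = 12) in DDT, by -1.55 points without DDT replicate 4 and by 0.95 points (p = 0.715) without DDT replicates 4 and 12, so its direction turned. Its coding fragment differed by -6.00 points, and by -0.28 without DDT replicates 4 and 12. A coding fragment of Kcng1 at 77.2% and an intronic fragment of Kcnn3 at 67.2% in VEH went from -6.83 to -0.47 and from -6.79 to -1.30 points without DDT replicate 4, and turned to 1.26 and 2.93 points without DDT replicates 4 and 12. A fragment of 31 bp upstream of Kcng1, at 42.6% in VEH, went from 5.09 to -0.92 points without these 2 libraries. Others kept their direction. The largest difference, -11.15 points (unadjusted ANOVA p = 0.21) at a shallow Kcng1 coding fragment of 103 bp, was the same without DDT replicate 4. It could not be tested without both libraries. Without both, a Kcns1 intron fragment went from -8.38 to -5.65 points and a Kcnc4 coding fragment from 5.55 to 7.29. A Kcne4 upstream fragment stayed at 5.03. Without DDT replicates 4 and 12, 7 of 172 Kcn fragments differed by over 5 points, against 4.52% of all. The 9 fragments at an unadjusted p under 0.05 became 10 without DDT replicate 4 and 8 without DDT replicates 4 and 12. The count fell to 5 without VEH replicate 2, VEH replicate 5 or DDT replicate 3, and to 4 without VEH replicate 12.

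Other genes of the same physiology and markers of the cell types in the tissue were counted in the same way. At other channels, pumps and partners of voltage-gated channels, 158 fragments of 24 genes were tested, with 0 at an adjusted p under 0.05 and 8 lower and 0 higher in DDT at an unadjusted p under 0.05, where 2.93% of all tested fragments were lower and 1.25% higher. The smallest p was at the potassium-chloride cotransporter gene Slc12a5, with 5.25% ± 1.25 in VEH and 3.43% ± 1.16 in DDT (SD, n = 12 each, ANOVA p = 0.00125, adjusted p = 0.869). These shares of all fragments, 4.18% in both directions together, are the background of the next lists too. Neural markers had 3 of 38 fragments at an unadjusted p under 0.05, all lower in DDT. Muscle markers had 1 lower and 2 higher of 30, with Neb the smallest at p = 0.0171. Immune cell markers had 1 lower of 18, at Ptprc, with 79.1% ± 4.15 over 12 VEH litters and 70.3% ± 12.9 over 11 DDT litters (mean ± SD). Adipocyte markers had 0 of 22, with a median VEH level of 9.83% and Fabp4 the smallest at p = 0.0569, and vascular markers 0 of 5, with Procr the smallest at p = 0.396. The p-values in these lists are unadjusted ANOVA values. DNA levels do not check the tissue label directly, and the part of cell composition in the Kcn levels was not tested.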

How the data were processed

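The processed data were RRBS counts of BAT from 12 VEH and 12 DDT litters. Before the authors deposited them, 50 bp single-end reads were trimmed with Scythe and Sickle and aligned to GRCm38 with Bowtie2 in Bismark 0.15.0, and for each MspI fragment the methylated and the unmethylated CpG calls were summed to 2 raw counts. The deposited table also names the nearest gene, the kind of region, the CpG island context and distances. It stops within chromosome 3 at position 136670346, and the rest of the genome was not analysed here. All 65535 fragments began at an MspI site of GRCm38. Sequences came from RefSeq (GRCm38.p6) and gene models from GENCODE M21. Reads of PCR copies were not told apart, so intervals and limits cover counting error only.

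Levels needed at least 10 calls, and fragments at least 8 libraries per group. Each of the 20225 fragments was tested by ANOVA on the levels with Benjamini-Hochberg adjustment over all of them (threshold 0.05), and differences of single fragments by two-sided permutation tests of 100000 resamples, exact where a group had fewer than 10 levels. Alternatives were limma on log2((methylated + 1) / (not methylated + 1)), quasi-binomial regression, minimums of 5, 20 and 30 calls, the replicate block, a depth covariate, fragments with a level in every one of the 24 libraries, libraries left out, and for levels the summed calls. A restriction to fragments over 48 bp that do not directly follow a shorter one was added after seeing the data. The ANOVA, limma and quasi-binomial tests were tried on simulated calls, and the permutation test was not. Fragments named are the 10 with the smallest p, for each gene the one nearest to a start and the gene body fragment with most calls, island cores at 20% to 80%, and the 5 with the largest VEH SD among those with at least 50 calls in each library. The Kcna10, Kcnc4, Kcnd3, Kcne4, Kcng1, Kcnj3, Kcnk15, Kcns1 and neighbouring fragments named beyond these were chosen after their values were seen. Some genes are counted in the totals but not reported one by one here. The members, lists and rules were chosen with earlier results of these data known.

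The replicate numbers were not taken to pair litters: the deviations of same-numbered VEH and DDT libraries correlated at -0.19 to 0.24 (median 0.042). The 132 other pairs correlated at -0.44 to 0.41 (median -0.0039). Compared 2 at a time, libraries differed by a chi-square of at least 1.72 on average over fragments, where sampling noise alone gives 1. The tools were limma 3.58.1 in R 4.3.3, and in Python 3.11.15 the packages SciPy 1.17.1, NumPy 2.4.6, matplotlib 3.10.9 and pandas 2.3.3.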

Additional observations from a re-analysis of the deposited data

How the results depend on the processing

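No Kcn fragment had an adjusted p under 0.05 under any alternative run, the smallest adjusted p being 0.477 with quasi-binomial regression. Of the 9 Kcn fragments at an unadjusted p under 0.05, limma kept 6, quasi-binomial regression 3 and the replicate block 4, and 2, those of Kcnq5 and Kcnj3, kept it whichever single library was left out. The number at an unadjusted p under 0.05 was 1 with levels in all 24 libraries, where 85 Kcn fragments could be tested (1.18%, against 4.24% of all), 5 with the replicate block (2.81%, against 4.12%), 5 of 94 (5.32%, against 4.18%) in fragments over 48 bp that do not directly follow a shorter one, and 4 to 10 with a single library left out, with 4 without VEH replicate 12 and 5 without VEH replicate 2, VEH replicate 5 or DDT replicate 3.

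Mean VEH levels moved more. Over all tested Kcn fragments the mean was 43.5%, and it was 41.7% with at least 30 calls, 29.5% with levels in all 24 libraries, 25.5% from summed calls and 52.3% in fragments over 48 bp that do not directly follow a shorter one. In island cores it was 10.9%, and 7.99% and 7.93% with at least 20 and 30 calls, 8.01% in all 24 libraries, 4.62% from summed calls and 15.7% in those longer fragments. Outside islands it was 58.9%, and 48.5%, 50.7% and 69.5% under the last 3 of these. In each setting other fragments or other weights enter the mean. The order of core below outside islands was the same in all of them.

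Some differences changed sign. Differences over 5 points at the Kcne4 start, at 2 fragments of Kcng1 and at 1 of Kcnn3 did so without DDT replicates 4 and 12. The Kcnj3 difference was -0.61 points with at least 5 calls, where DDT replicate 4 entered with 8 calls. With a single library left out, the difference ranged from -0.29 (without DDT replicate 4) to 1.999 at the Kcna2 core fragment, from -1.93 to 0.60 at the Kcnq5 start fragment with the wide spread, and from -0.86 to 1.04 at the Kcnk15 intron fragment. Without DDT replicates 4 and 12 it was 1.28 at this Kcnq5 fragment and 0.71 at the Kcnk15 fragment, which had 0.94 in the quasi-binomial regression and 0.062 with the depth covariate. The cause was not tested. Shallow fragments limit what can be seen: the Kcnq5 and Kcnk2 fragments with small p could not be tested with at least 20 calls, and the 505 Kcn fragments with too few calls were not compared at all.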
